A study of Mus musculus with 24 samples.

Results

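Of the 39017 genes in the count table, 39 form the set described here, the ER secretory and unfolded protein genes. They were taken as a fixed list of genes for translocation into the endoplasmic reticulum (ER), protein folding there and degradation from it, together with the transcription factor Xbp1, and were matched to the table by symbol. All 39 had a row, and all 39 were among the 18093 genes that passed the filter on low counts. RNA was sequenced from dendritic cells sorted from the spleens of C57BL/6 x FVB/N F1 mice. Animals were either Flt3 +/+ (WT) or Flt3 ITD/+ (ITD), heterozygous for an internal tandem duplication of the receptor of the cytokine that drives dendritic cell development. The labels name 5 sorted subsets: PDC (commonly short for plasmacytoid dendritic cells), canonical CD8+ cells (C_CD8), non-canonical CD8+ cells (NC_CD8), and the Esam-hi and Esam-lo fractions of CD11b+ cells (Esamhi and Esamlo). There were 24 libraries, with 3 per genotype for either CD8+ subset and 2 per genotype for the rest, and the series design text states that replicates came from independent experiments. The sources used here give no age, sex or number of mice per library.

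Proteins bound for the cell surface or for secretion are recognised by the signal recognition particle, threaded through the Sec61 channel into the ER, trimmed by signal peptidase and folded by chaperones and disulfide isomerases. Proteins that fail to fold are moved back to the cytosol and degraded, a route called ER-associated degradation (ERAD). When unfolded proteins build up, the sensor IRE1 (encoded by Ern1) splices Xbp1 mRNA, and the factors XBP1 and ATF6 raise the transcription of this machinery. Plasmacytoid dendritic cells secrete large amounts of type I interferon and are known for an extensive ER, and XBP1 is known to matter for dendritic cells that carry much of it. The counts are per gene, so spliced and unspliced Xbp1 were not distinguished.

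The libraries held 11197145 to 22248404 counts. Levels below are CPM, a gene's counts per 1000000 counts of the library, whose total was scaled by the TMM method. The labels give 4 experiment batches: PDC libraries came from batches A and B, both CD8+ subsets from B, C and D, and both CD11b+ subsets from C and D. Each subset and batch held 1 WT and 1 ITD library, which gives 12 pairs. Batch B alone therefore joins PDC to any other subset. Defining genes were present in 3 of the 5 labelled subsets: Siglech, a surface lectin of plasmacytoid cells, read 4509 to 5388 CPM in PDC and at most 291.5 CPM elsewhere, Xcr1, a chemokine receptor of CD8+ type dendritic cells, was at 575 to 1223 CPM in C_CD8, and Esam at 57.7 to 68.8 CPM in Esamhi and at most 14.3 CPM elsewhere. NC_CD8 read 6.96 to 148 CPM of Xcr1, with Sirpa, a receptor of CD11b+ type cells, at 336 to 696 CPM against 17.4 to 102 CPM in C_CD8. The summed level of 10 plasmacytoid genes was 1032 to 1549 CPM in NC_CD8. It was 11750 to 12840 CPM in PDC, and 220 to 394 CPM in C_CD8 and the CD11b+ subsets. Esamlo had Sirpa at 952 to 1190 CPM and the CD11b gene Itgam at 173 to 214 CPM. The 2 PDC libraries of batch B stood apart from those of batch A. The summed level of 13 plasma cell genes was 9087 CPM in the WT and 5931 CPM in the ITD library of batch B, against 3478 and 3354 CPM in batch A and 674 to 2030 CPM in the other 20 libraries. Jchain, the joining chain of secreted antibodies, read 623 and 234 CPM in batch B PDC and 28.8 and 39.9 CPM in batch A PDC. Tnfrsf17, a receptor of plasma cells, read 1.28 and 1.23 CPM in batch B PDC, 0.044 and 0.050 CPM in batch A PDC and at most 0.455 CPM elsewhere. Other genes of the list did not follow. Irf4 read 139 and 115 CPM in batch A PDC and 55.2 and 72.5 CPM in batch B PDC, and Prdm1 5.07 and 6.00 against 3.00 and 1.87 CPM. In batch A PDC, Sdc1 (56.1 and 25.85 CPM) and Mzb1 (70.9 and 140 CPM) already lay above the other subsets, at most 2.15 and 7.92 CPM. The summed level of 9 fibroblast genes was 198 and 97.1 CPM in batch B PDC, 1.73 and 0.958 CPM in batch A PDC and at most 10.7 CPM elsewhere. Values for PDC are therefore given by batch.

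In the promoters of these genes, windows of 250 bases before to 50 bases after a RefSeq transcript start (GRCm38.p6) were at hand for 31 of the 39 members. Windows for Atf6, Derl1, Manf, Sec11c, Sec61a1, Spcs3, Srp68 and Ssr2 were not used here. The ER stress element, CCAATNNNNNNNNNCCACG, is the site at which NF-Y and ATF6 or XBP1 are known to bind. Searched on both strands, it was found in 9 of the 31 members (29.0%) and in 37 of all 27025 genes with a window (0.137%). The shorter ERSE-II, ATTGGNCCACG, was found in 2 of the 31 (6.45%), Dnajb11 and Herpud1, and in 12 of all genes (0.0444%). The UPRE-type letters TGACGTGG were in 0 of the 31 and in 0.714% of all genes. The part CCACG alone, which overlaps each element, was in 24 of the 31 (77.4%) and in 35.5% of all genes. A match is a description of the letters and not of binding in these cells. The sequences below show 7 of the 11 members with an element, which belong to different roles. Each is written 5′ to 3′ on the gene's strand, with capitals for the conserved ends of the element, read as CGTGG and ATTGG where it lies on the opposite strand.
Hspa5: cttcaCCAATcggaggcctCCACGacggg
Hsp90b1: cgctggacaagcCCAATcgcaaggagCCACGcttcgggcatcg
Hsp90b1: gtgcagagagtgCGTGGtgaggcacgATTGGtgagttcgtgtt
Calr: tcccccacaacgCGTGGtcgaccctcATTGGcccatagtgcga
Pdia6: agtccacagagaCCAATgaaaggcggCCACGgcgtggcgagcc
Dnajc3: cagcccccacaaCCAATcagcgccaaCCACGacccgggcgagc
Creld2: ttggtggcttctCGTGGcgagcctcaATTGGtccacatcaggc
Herpud1: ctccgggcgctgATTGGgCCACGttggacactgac
Coordinates are those of the printed stretches with their flanks, and distances those of the elements. The Hspa5 element, in the stretch at chr2:34772020-34772048 on the plus strand, begins 65 bases before the start. Hsp90b1 holds 2 elements that face each other, 212 and 107 bases before its start, in the stretches at chr10:86705626-86705668 and chr10:86705521-86705563 on the minus strand. The other stretches lie at chr8:84847063-84847105 (Calr, minus strand), chr12:17266479-17266521 (Pdia6, plus), chr14:118937815-118937857 (Dnajc3, plus), chr15:88819508-88819550 (Creld2, plus) and chr8:94386365-94386399 (Herpud1, plus, an ERSE-II). The window of Hspa5 overlaps 1 exon of the GENCODE M21 annotation and is shown shorter, and the other windows printed overlap 0 exons. Canx, Derl3 and Syvn1 also hold an ERSE.

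Read per length of transcript, the set spanned a wide range of levels. Hspa5, the chaperone BiP, was the most abundant member with 427 CPM per kilobase on average over the 10 groups, followed by the calcium-binding chaperone Calr (373) and the ERAD scaffold Herpud1 (356). The lowest were Ern1 with 9.20 and Derl3, an ERAD channel protein typical of secretory cells, with 1.29 CPM per kilobase. Together the 39 genes took 1.37% to 1.82% of all counts in PDC, 0.984% to 1.25% in C_CD8, 0.792% to 0.878% in NC_CD8, 0.753% to 0.829% in Esamlo and 0.695% to 0.720% in Esamhi. No library of PDC overlapped one of another subset in this share, and no C_CD8 library overlapped one of NC_CD8, Esamlo or Esamhi. Within PDC, the batch A libraries took 1.75% (WT) and 1.82% (ITD) and the batch B libraries 1.40% (WT) and 1.37% (ITD). Plasma cell and fibroblast sums also differed between these batches, and their part in the share was not tested. By WT mean, PDC held the highest level of 31 members, C_CD8 of 6 (Srp72, Ssr3, Calr, Pdia3, Sdf2l1 and Derl2), Esamhi of 1 (Ssr1) and Esamlo of 1 (Sel1l). Esamhi held the lowest level of 24 members. These counts by order have no share over all genes beside them, so they only describe the members. In bulk RNA, a smaller share of cells that express a gene and a lower level per cell cannot be told apart.

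**Figure D1:**
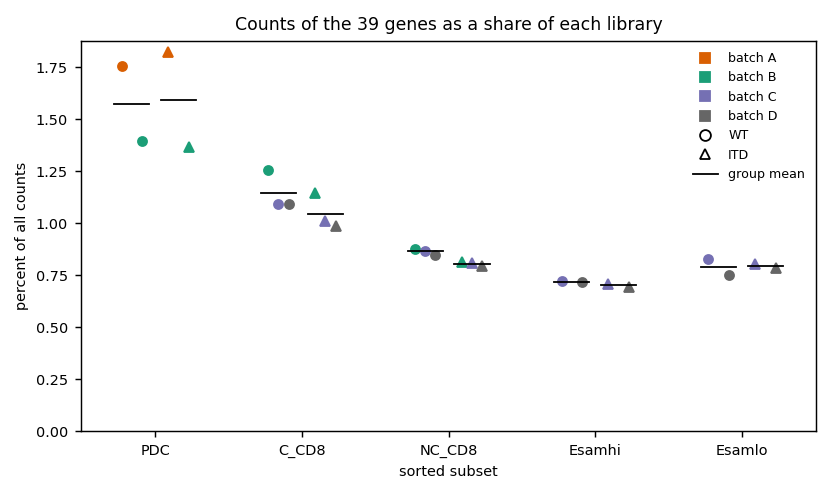
Counts of the 39 genes as a percent of all counts (y axis, from 0) in each of 24 libraries, by sorted subset (x axis), with the marker shape for genotype, its colour for batch and a bar for the group mean. PDC libraries lie between 1.37% and 1.82%, above all others, and the batch B libraries of PDC below those of batch A.

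**Figure D2:**
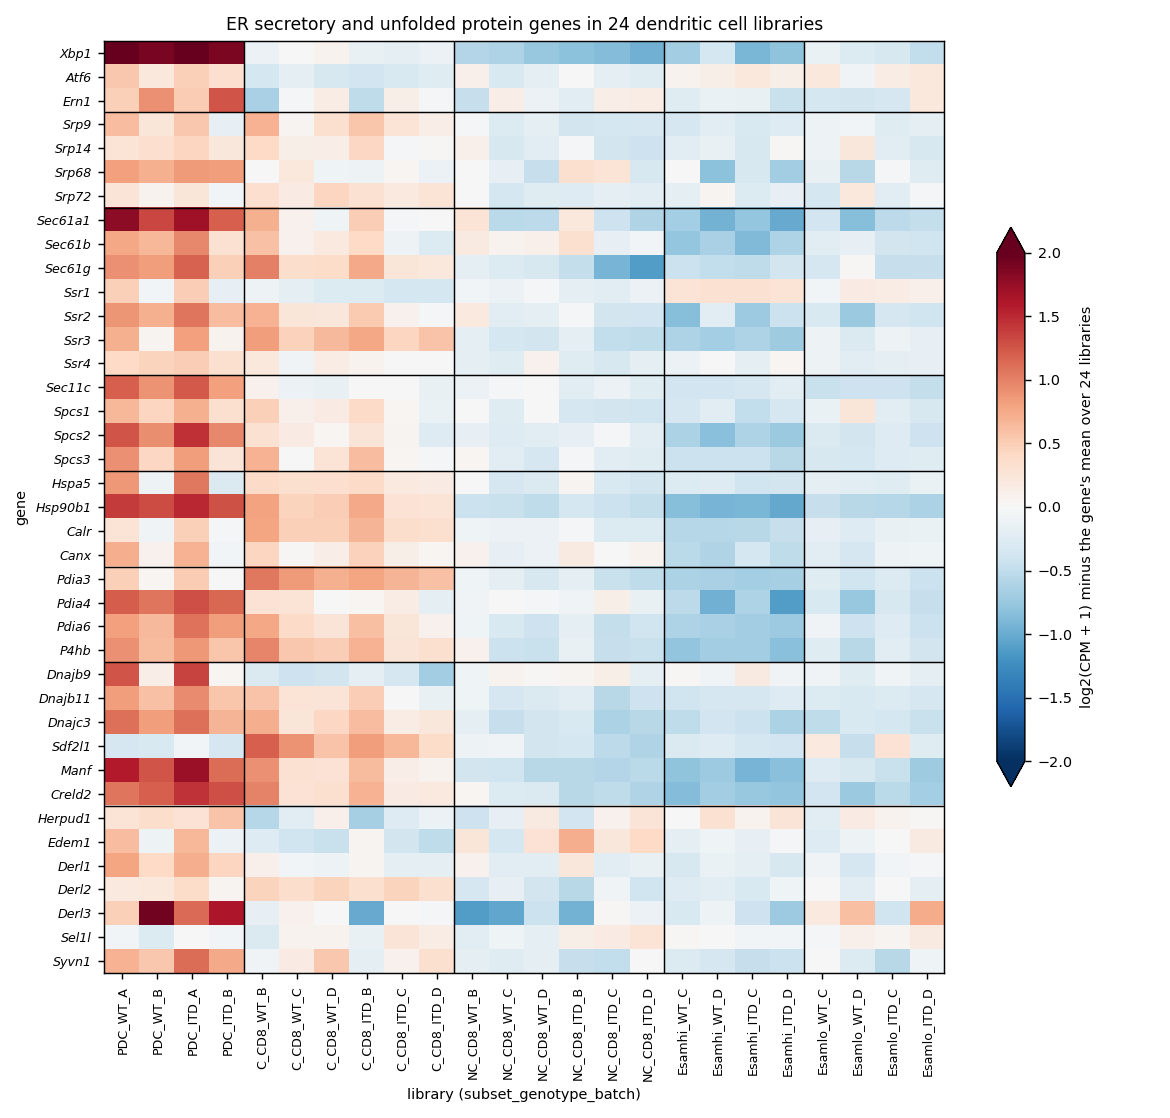
Level of each of the 39 genes (rows, by role) in 24 libraries (columns, named by subset, genotype and batch), as log2(CPM + 1) minus the gene's mean over the libraries, with colours that saturate at 2 in either direction. PDC columns are the highest for most rows, C_CD8 columns for Pdia3, Calr and Sdf2l1, and Esamhi columns are the lowest for most.

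PDC were compared with the mean of the 4 other subsets, within each genotype, by edgeR's quasi-likelihood test over all genes with Benjamini-Hochberg adjustment. In WT cells 28 of 39 members were higher in PDC and 0 were lower, against 20.4% of all genes called higher. The median log2 difference was 0.83 over the members and -0.02 over all genes. In ITD cells 29 members were higher and 0 lower, against 19.2% of all genes, with a median of 0.94, led by Xbp1 (2.91), Derl3 (2.48), Manf (1.90), Sec61a1 (1.83), Hsp90b1 (1.78) and Creld2 (1.78). Not called in ITD were Calr, Derl2, Canx, Sel1l, Ssr1, Sdf2l1, Srp9, Edem1, Herpud1 and Srp72. Leaving out the batch B libraries of PDC left 30 of 39 members higher in WT (13.1% of all genes) and 32 of 39 in ITD (12.7%), with the lone PDC library of each genotype assumed to vary like the other groups. For 12 members the 4 PDC libraries all lay above the other 20 libraries, as for 9.92% of all genes: Xbp1, Ern1, Srp68, Sec61a1, Ssr4, Sec11c, Spcs2, Hsp90b1, Pdia4, Manf, Creld2 and Derl1.

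Xbp1 (ENSMUSG00000020484, chromosome 11, 5520659 to 5525893, GRCm38) differed most among the well expressed members. It read 1653 (batch A) and 959 CPM (batch B) in WT PDC, and 1636 and 953 CPM in ITD PDC. C_CD8 libraries read 238, 256.5 and 269 CPM in WT and 231, 224 and 237 CPM in ITD. NC_CD8 libraries read 171.5, 168 and 152 CPM in WT and 145, 141 and 131 CPM in ITD. The PDC values lay far above all others, and those of C_CD8 above those of NC_CD8. Esamhi read 159 and 202 CPM in WT and 136 and 146.5 CPM in ITD, and Esamlo 235 and 213 CPM in WT and 206 and 183 CPM in ITD. In WT the PDC level was 6.45-fold above the mean of the 4 others (log2 2.69, SE 0.15, edgeR adjusted p = 1.71e-10). Of the 2 sensors, Ern1 read 83.0 and 112 CPM in WT PDC and 37.5 to 68.7 CPM in the other 20 libraries of both genotypes, a log2 difference of 0.92 (SE 0.22, edgeR adjusted p = 0.00266). Atf6, the other sensor and itself a factor, differed by 0.43 (SE 0.12, edgeR adjusted p = 0.0077), and its PDC range of 212 to 266 CPM touched that of the others, 140 to 214 CPM.

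Among genes for entry into the ER, 2 of 4 signal recognition particle genes, 6 of 7 translocon genes and 4 of 4 signal peptidase genes were higher in WT PDC. Sec61a1, the pore-forming subunit of the channel, read 787 and 576 CPM in WT PDC and 741 and 518.5 CPM in ITD PDC, against 113 to 372 CPM in the other 20 libraries with a median of 166. Its WT log2 difference was 1.92 (SE 0.23, edgeR adjusted p = 2.41e-06). The small channel subunits Sec61b and Sec61g followed with 0.85 and 0.99. Of the translocon-associated proteins, Ssr2, Ssr3 and Ssr4 were higher by 0.98, 0.55 and 0.48, and Ssr1 did not pass (0.21, adjusted p = 0.246). Of the signal recognition particle, Srp68 and Srp9 were higher by 0.98 and 0.48, and Srp14 (0.31) and Srp72 (0.17) did not pass. With the experiment batch as a block, Ssr3 was at -0.06 and Srp9 at -0.018, neither past the threshold. Sec11c, a catalytic subunit of signal peptidase, read 461 and 375 CPM in WT PDC and 470 and 357 CPM in ITD PDC, against 144 to 212 CPM elsewhere. Its WT difference of 1.29 (SE 0.10, edgeR adjusted p = 1.65e-08) rests on groups without overlap. Spcs2, an accessory subunit, was higher by 1.39, Spcs3 by 0.83 and Spcs1 by 0.57.

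Folding genes split. Hsp90b1, the ER chaperone GRP94, read 1427 and 1345 CPM in WT PDC and 1546 and 1314 CPM in ITD PDC, against 267 to 950 CPM elsewhere with a median of 395, and was 3.19-fold higher in WT (log2 1.67, SE 0.11, edgeR adjusted p = 1.49e-09). Canx, the membrane-bound lectin chaperone calnexin, was higher by 0.62 in WT and did not pass in ITD (0.42, adjusted p = 0.0659). Calr, its soluble counterpart, did not pass in either genotype (0.19 in WT). Hspa5 read 2765 (batch A) and 1403 CPM (batch B) in WT PDC and 3129 and 1243 CPM in ITD PDC, against 1146 to 1981 CPM in the other 20 libraries. The batch A libraries lay above all others and the batch B libraries inside the range of the others. Its difference was 0.54 (SE 0.23, adjusted p = 0.0728) in WT and 0.66 (SE 0.23, edgeR adjusted p = 0.0314) in ITD. Without the batch A ITD library of PDC the ITD difference was -0.15 (adjusted p = 0.684). Of the disulfide isomerases, Pdia4 (1.43), P4hb (0.95) and Pdia6 (0.90) were higher in WT PDC, and Pdia3 (0.35, adjusted p = 0.0581), which pairs with the lectin chaperones on glycoproteins and also loads MHC class I, did not pass in WT.

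Among co-chaperones and other targets of the unfolded protein response, 5 of 6 were higher in WT PDC. Manf, a small secreted ER protein, read 285 and 227.5 CPM in WT PDC and 316 and 205 CPM in ITD PDC, against 49.1 to 179 CPM elsewhere (WT log2 difference 1.69, SE 0.16, edgeR adjusted p = 1.68e-07). Creld2, an ER-resident disulfide isomerase-like protein, was higher by 1.39, Dnajc3 by 1.15, Dnajb9 by 0.95 and Dnajb11 by 0.85. The 3 last are J-domain partners of BiP. Dnajb9 read 151 and 162 CPM in batch A PDC, 68.9 and 64.8 CPM in batch B PDC, and 38.3 to 71.5 CPM elsewhere. As for Hspa5, the batch A values alone lay clear of the other subsets. Sdf2l1, a partner of the J-domain proteins, had its lowest WT mean in PDC (93.3 and 95.2 CPM) and its highest in C_CD8 (271, 220.5 and 177 CPM), and its difference of -0.42 (adjusted p = 0.0881) did not pass. Of 7 ERAD genes, 3 were higher in WT PDC: Derl3 (2.56, SE 0.73), Derl1 (0.75) and Syvn1 (0.74), the ubiquitin ligase HRD1. Derl3 was low throughout, with 45 to 148 reads in PDC libraries and 0 to 42 reads in the others, so its fold is imprecise. Within PDC it was at 2.00 and 3.73 CPM in batch A and at 7.28 and 5.62 CPM in batch B. Batch B had the higher plasma cell sum, and the part of plasma cell transcripts was not tested. Herpud1 (0.36), Edem1 (0.46), Derl2 (0.26) and Sel1l (-0.12) did not pass.

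**Figure D3:**
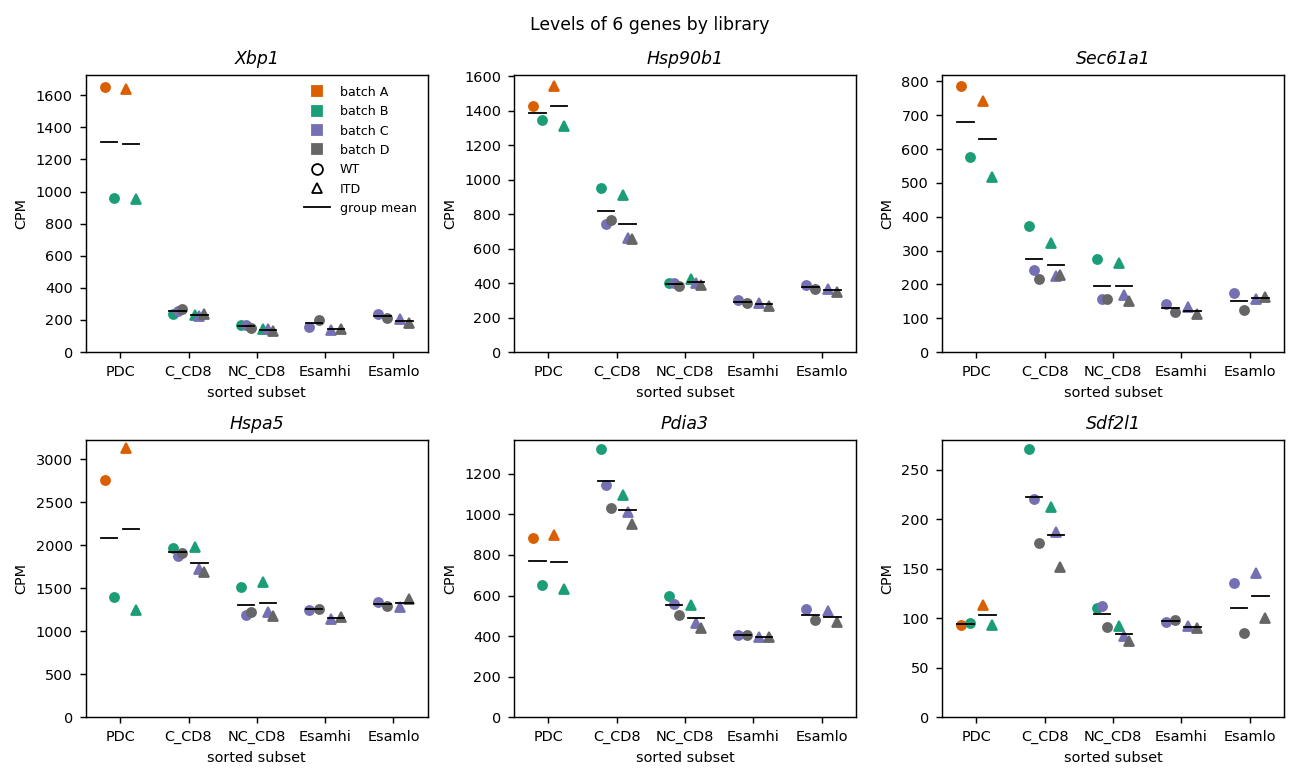
CPM of 6 members (y axes, from 0) in each of 24 libraries by sorted subset (x axes), with the marker shape for genotype, its colour for batch and a bar for the group mean. Xbp1, Hsp90b1 and Sec61a1 are highest in all 4 PDC libraries, Hspa5 only in the 2 of batch A, and Pdia3 and Sdf2l1 are highest in C_CD8.

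With the experiment batch as a block in the model, the same contrast gave smaller differences for most of the set. In WT, 20 members were higher and 3 lower in PDC, against 24.7% and 25.5% of all genes, with a member median of 0.39. In ITD, 23 were higher and 3 lower, against 23.6% and 24.5%. Xbp1 (2.24), Derl3 (4.67), Ern1 (1.67), Hsp90b1 (1.40), Pdia4 (1.34), Manf (1.17), Sec61a1 (1.12), Sec11c (1.08), Creld2 (1.06) and Spcs2 (1.05) were the largest in WT. Herpud1, at 0.36 without the block, was called higher with it (0.87, SE 0.10, edgeR adjusted p = 2.11e-06). The 3 lower members in WT were Sdf2l1 (-0.70), Hspa5 (-0.32) and Calr (-0.24). Hspa5 thus took opposite directions in ITD, 0.66 without and -0.27 with the block (adjusted p = 0.0385). In that model, the effect of batch A is read from PDC alone. The level of PDC beside other subsets is then set by its batch B libraries, those with the higher plasma cell and fibroblast sums. Batch A libraries inform only the difference between genotypes in PDC. This holds for all contrasts with PDC that use the block, and their p-values do not measure the spread between independent PDC experiments.

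PDC against C_CD8, the subset with the next highest share, was added after the levels had been seen, since batch B holds both. Over all WT libraries 15 members were higher in PDC (18.2% of all genes) and 3 lower (19.5%), with a median of 0.40. The largest among the higher were Xbp1 (2.36), Sec61a1 (1.30), Dnajb9 (1.18), Sec11c (1.12), Pdia4 (0.96), Spcs2 (0.93), Manf (0.90), Ern1 (0.86), Hsp90b1 (0.76) and Srp68 (0.72), and the lower ones were Sdf2l1 (-1.24), Pdia3 (-0.60) and Calr (-0.48). Not called were Ssr4, Dnajb11, Derl3, Srp14, Derl2, Canx, Pdia6, Sel1l, Ssr1, Spcs1, Syvn1, P4hb, Srp9, Hspa5, Ssr3, Herpud1, Srp72, Ssr2, Sec61b, Spcs3 and Sec61g. Both counts depended on single libraries. Fewest were higher without the batch A WT library of PDC, and fewest lower without the batch B WT library of PDC or of C_CD8. With the batch block 13 were higher (25.7%) and 8 lower (27.3%), with a median of 0.03. In the 6 batch B libraries alone, with subset and genotype as terms, 16 of 39 were higher (30.4%) and 8 lower (29.0%), with a median of 0.10. All libraries of that fit are of the same batch, so its p-values do not measure the spread between independent experiments. The share of members called higher was 16 of 39 beside 30.4% of all genes, and single members differed in both directions. Xbp1 was higher by 2.06 (SE 0.11, edgeR adjusted p = 6.45e-05) in batch B alone, from 959 and 953 CPM in PDC and 238 and 231 CPM in C_CD8. Derl3 (3.74), Ern1 (1.72), Herpud1 (1.11), Pdia4 (0.99), Sec11c (0.87), Srp68 (0.86), Syvn1 (0.84), Spcs2 (0.71) and Sec61a1 (0.69) were the next largest among the higher. Sdf2l1 (-1.31), Pdia3 (-0.88), Calr (-0.76), Ssr3 (-0.71), Srp9 (-0.56), Hspa5 (-0.54), Canx (-0.39) and Spcs3 (-0.29) were lower, among them 3 of the 4 chaperones and lectins. Between the batches of PDC, 31 of 39 members read higher in batch A than in batch B in WT (median log2 difference 0.25, and -0.05 over all genes) and 36 of 39 in ITD (0.40, and -0.01 over all genes).

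**Figure D4:**
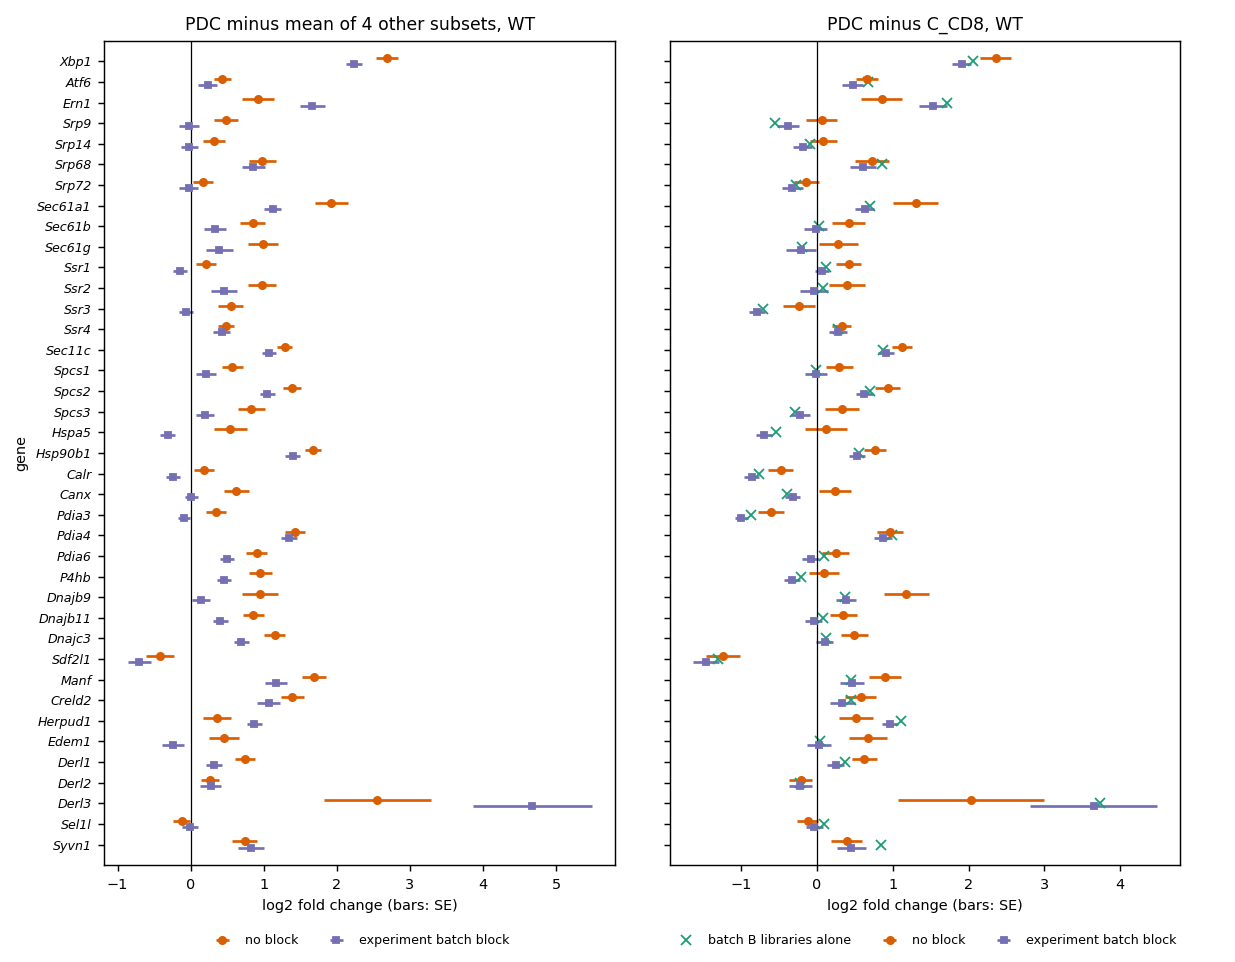
Log2 fold changes of the 39 genes (rows, by role) in WT cells for PDC against the mean of the 4 other subsets (left) and PDC against C_CD8 (right), without a block (circles, with SE), with the experiment batch as a block (squares, with SE) and from the 6 batch B libraries alone (crosses, right). Xbp1, Sec11c, Pdia4 and Hsp90b1 stay right of 0 in all fits, while Hspa5 lies right of 0 without the block and left of it in the others.

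The non-canonical CD8+ cells lay below both PDC and C_CD8. Against PDC in WT, 28 of 39 members were lower in NC_CD8 and 0 higher, against 12.7% of all genes called lower, with a median of -0.81. This count also depended on single libraries and was smallest without the batch A WT library of PDC. With the batch block 21 were lower (20.7% of all genes) and 1, Edem1 (0.42), was higher (4124 of 18093 genes), with a median of -0.49. In batch B alone, which holds both subsets, 23 were lower (25.7%) and Edem1 was higher (0.58, with 3966 of 16370 genes called higher), with a median of -0.61. Derl3 (-4.50), Xbp1 (-2.99), Manf (-1.89), Hsp90b1 (-1.82), Sec61a1 (-1.80), Spcs2 (-1.32), Creld2 (-1.32), Dnajc3 (-1.31), Sec61g (-1.19) and Pdia4 (-1.19) differed most. Members not called were Calr, Srp14, Dnajb9, Canx, Sel1l, Ssr1, Sdf2l1, Hspa5, Edem1, Herpud1 and Srp72. Against C_CD8, with which they share all 3 batches, 16 members were lower and 0 higher in WT (12.6% of all genes called lower), with a median of -0.49. In ITD cells 17 were lower (14.0%) and 1, the ERAD mannosidase-like Edem1, was higher by 0.73 (SE 0.23, edgeR adjusted p = 0.0236), against 2341 of 18093 genes called higher. With the batch block the WT count was 26 lower (21.5%) and 2 higher, Edem1 and Dnajb9 (3718 of 18093 genes called higher). The WT members with the largest differences were Sdf2l1 (-1.09), Pdia3 (-1.07), Hsp90b1 (-1.06), Manf (-0.99), Ssr3 (-0.96), P4hb (-0.93), Sec61g (-0.91), Dnajc3 (-0.81), Pdia6 (-0.75) and Creld2 (-0.75). Pdia3 read 1321, 1145 and 1032 CPM in WT C_CD8 and 597, 560 and 506.5 CPM in WT NC_CD8, groups without overlap (SE 0.15, edgeR adjusted p = 4.48e-05). By role, 3 of 4 disulfide isomerases and 5 of 6 co-chaperones and other targets were lower, and 0 of 4 signal peptidase genes and 1 of 7 ERAD genes. The members not called in WT were Atf6, Ern1, Srp14, Srp68, Sec61a1, Sec61b, Ssr1, Ssr2, Ssr4, all 4 signal peptidase genes, Hspa5, Canx, Pdia4, Dnajb9 and 6 ERAD genes other than Derl2. Summed red pulp macrophage genes ranged from 45.7 to 998 CPM among the 3 WT NC_CD8 libraries and from 124 to 386 CPM in WT C_CD8, and their part in these differences was not tested.

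Canonical CD8+ cells in turn lay above the CD11b+ subsets. In WT, 22 members were higher in C_CD8 than in the mean of Esamhi and Esamlo, against 13.9% of all genes, and 1, Atf6 (-0.37), was lower (12.9%). The median was 0.60. With the batch block 28 were higher (19.2%) and 4 lower (18.7%): Atf6 (-0.40), Ssr1 (-0.37), Edem1 (-0.32) and Dnajb9 (-0.30). Pdia3 (1.36), Hsp90b1 (1.30), Creld2 (1.26), P4hb (1.26), Sdf2l1 (1.10), Ssr3 (1.08), Manf (1.08), Sec61a1 (0.99), Calr (0.98) and Sec61g (0.97) were the largest. Members not called were Ssr4, Derl3, Srp14, Dnajb9, Xbp1, Ern1, Srp68, Sel1l, Ssr1, Spcs1, Derl1, Syvn1, Hspa5, Edem1, Herpud1 and Srp72. All 4 disulfide isomerases were higher, whereas 1 of 7 ERAD genes, Derl2 (0.60), was. Xbp1 itself did not pass here (0.34, SE 0.17, adjusted p = 0.16) and passed with the batch block (0.34, SE 0.09, edgeR adjusted p = 0.00695). Hspa5 likewise moved from adjusted p = 0.0791 to 4.77e-05 with the block in edgeR, at 0.58 and 0.50. Between Esamhi and Esamlo, edgeR called 0 members in WT (0.658% of all genes in either direction) and 0 in ITD (0.442%), with 3 and 4 members at an unadjusted p under 0.05, all lower in Esamhi, and DESeq2 also called 0 in both. With the batch block, 8 members were lower in WT Esamhi (3.74% of all genes called lower) and 7 in ITD (2.44%). Ssr3 (-0.46 in WT and -0.54 in ITD), P4hb (-0.35 and -0.48), Pdia6 (-0.39 and -0.37), Calr (-0.35 and -0.37) and Pdia3 (-0.32 and -0.32) were on both lists. Sec61b, Spcs2 and Hsp90b1 were on the WT list alone, and Xbp1 (-0.46) and Pdia4 on the ITD list alone.

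Other genes of the pathway, on lists that do not include the members, were read in the same contrast of WT PDC with the 4 other subsets, in which 20.4% of all genes were higher and 17.8% lower. Of 19 further genes of signal recognition and translocation, 9 were higher and 1 lower, led by Emc3 (1.34) of the ER membrane complex and Tram1 (1.26). Of 17 genes of N-glycosylation and glycan trimming, 13 were higher and 0 lower, led by the oligosaccharyltransferase subunits Stt3b (1.70) and Krtcap2 (1.57). Krtcap2 read 91.9 to 105 CPM in PDC and 23.6 to 42.2 CPM elsewhere. Of 24 further chaperones and oxidoreductases, 9 were higher and 1 lower, led by Txndc5 (2.27), also on the plasma cell list, with 474 and 490.5 CPM in batch A PDC, 552 and 529 CPM in batch B PDC and at most 198.5 CPM elsewhere. Of 22 further ERAD genes, 10 were higher and 0 lower, led by Edem2 (1.66) and Ubxn4 (1.44). Of 33 genes of transport between ER and Golgi, 19 were higher and 2 lower. Sec24d, a cargo-binding coat subunit, led with 3.24 (SE 0.15, edgeR adjusted p = 2.1e-11), from 181 to 207 CPM in PDC and 7.91 to 49.1 CPM elsewhere, and Tmed3 followed with 1.99. The list of the PERK and ATF4 branch and other stress genes did not move one way, with 6 of 20 higher and 3 lower. Wfs1 (4.43) and Creb3l2 (3.05) were higher, and Atf3 was lower (-4.14), with 11.9 to 99.7 CPM in PDC and 380.5 to 1403 CPM elsewhere. Chac1, a target of the ATF4 branch, was also called lower, with 0 to 5 reads in PDC libraries and 7 to 184 in others. With the batch block these counts were 7 higher and 4 lower, 10 and 1, 8 and 3, 10 and 3, 15 and 3, and 6 and 7, in the order of the text, beside 24.7% of all genes higher and 25.5% lower.

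The Flt3 genotype was compared within each subset. edgeR called 0 of 39 members in PDC (0.0608% of all genes), C_CD8 (0.0166%), NC_CD8 (0.310%), Esamhi (0%) and Esamlo (0.00553%), and 0 on average over the 5 subsets (0.359%). At an unadjusted p under 0.05 there were 3 members in NC_CD8, 1 on average and 0 in the other 4 subsets, and DESeq2 called 0 in each. The test of whether the ITD effect differed among subsets called 0 members (0% of all genes), with 0 at an unadjusted p under 0.05. With the replicate block it also called 0 (0.304%), with 4 members at an unadjusted p under 0.05. Median differences were small: 0.03 in PDC, -0.13 in C_CD8, -0.08 in NC_CD8, -0.03 in Esamhi and 0.01 in Esamlo, where all genes had 0.00 or -0.01. NC_CD8, where members passed with the replicate block, follows below. The 5 largest differences in each of the other 4 subsets, none past the threshold, were Syvn1 (0.33), Pdia6 (0.23), Creld2 (0.23), Ern1 (0.22) and Srp9 (-0.22) in PDC. In C_CD8 they were Derl3 (-0.48), Sdf2l1 (-0.27), Sec61b (-0.27), P4hb (-0.26) and Manf (-0.24). In Esamhi they were Derl3 (-0.90), Xbp1 (-0.35), Srp72 (-0.16), Srp68 (-0.15) and Canx (0.15), and in Esamlo Srp14 (-0.35), Spcs1 (-0.34), Sec61g (-0.33), Ern1 (0.32) and Manf (-0.29).

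The replicate block sets each ITD library against the WT library of the same subset and batch. With it, 5 members passed in NC_CD8 (4.79% of all genes) and 4 on average over the subsets (6.83%), and 0 in PDC (0.249%), C_CD8 (1.23%), Esamhi (0.0497%) and Esamlo (0.0497%), where 1, 10, 1 and 6 had an unadjusted p under 0.05. In NC_CD8, Sec61g (-0.63, SE 0.16, edgeR adjusted p = 0.0422), Creld2 (-0.39) and Sdf2l1 (-0.32) were lower in ITD, and Edem1 (0.39) and the ERAD adaptor Sel1l (0.35, SE 0.07, edgeR adjusted p = 0.0102) were higher. Sel1l read 147, 161 and 151 CPM in WT NC_CD8 and 186, 192 and 206 CPM in ITD NC_CD8, groups that do not overlap. On average over subsets, Xbp1 (-0.19, SE 0.03, edgeR adjusted p = 0.00591), Spcs1 (-0.19) and Manf (-0.15) were lower and Sel1l (0.13) was higher. Without the block the adjusted p of Xbp1 was 0.603. Xbp1 read lower in the ITD library in 12 of 12 pairs, by 0.01 to 0.46 on the log2 scale, with the least in PDC (-0.02 and -0.01). Spcs1 and Pdia3 read lower in 11 of 12 pairs, and Sel1l and Edem1 higher in 10 of 12. In the 3 pairs of C_CD8, 32, 28 and 35 of the 39 members read lower in ITD, with medians of -0.11, -0.12 and -0.17 beside -0.02, 0.00 and 0.00 over all genes. In PDC the pairs went apart. In batch A 30 of 39 members were higher in ITD (median 0.07, and 0.01 over all genes), and in batch B 26 were lower (median -0.07, and 0.00 over all genes). The single members named by pairs were picked from the 39. No share over all genes stands beside the pair counts, so they only describe the members.

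**Figure D5:**
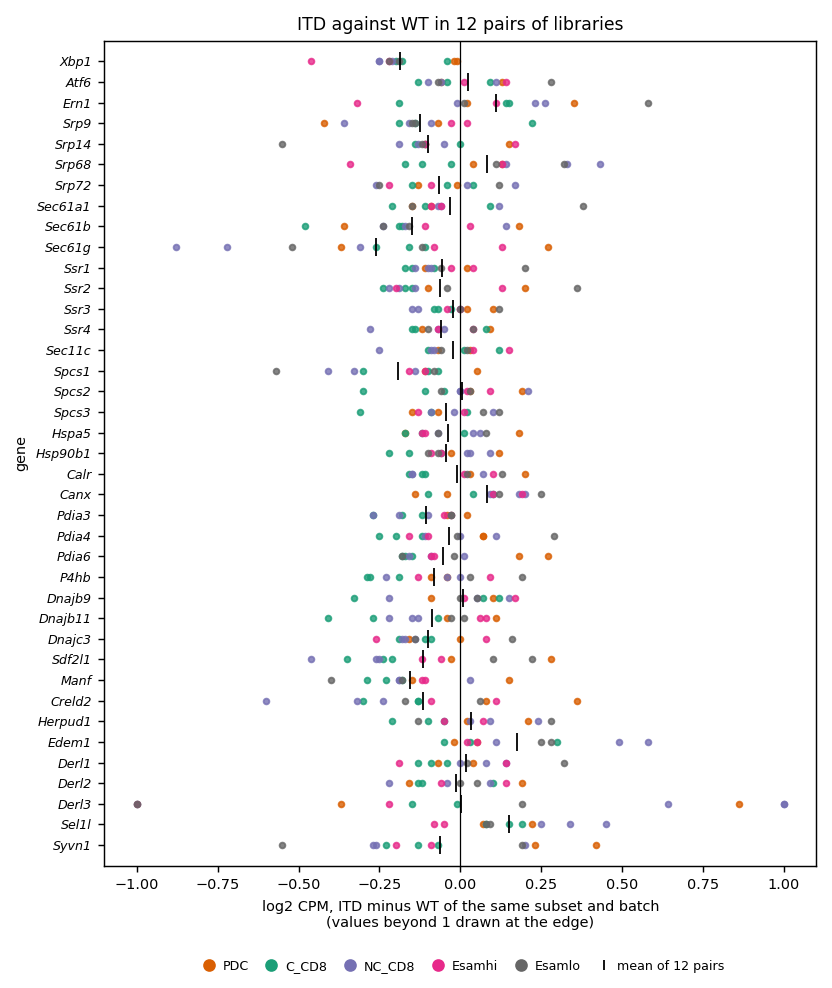
Difference in log2 CPM between the ITD and the WT library of the same subset and batch (x axis) for the 39 genes (rows, by role), with points coloured by subset for 12 pairs, a bar for their mean, and values beyond 1 (all of Derl3) drawn at the edge. All 12 points of Xbp1 lie left of 0, by 0.01 to 0.46, and 10 of 12 points of Sel1l and Edem1 lie right of it.

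Likeness to Xbp1 was described by Pearson's r of log2 CPM, over libraries that share subsets and batches and hence with no test. Over 24 libraries the median r of the other 38 members was 0.71, with Sec11c (0.92), Spcs2 and Manf (0.91) nearest and Sel1l (-0.25) farthest. Without the PDC libraries, over 20 libraries, the median was 0.60 and the order changed: Sdf2l1 and Derl2 were nearest (0.82), Sec11c was at 0.12, and Dnajb9 at -0.73. After the mean of each group was removed, the median was 0.41, with Hspa5 (0.86) and Dnajb9 (0.82) nearest. In WT PDC these 2 read higher in batch A than in batch B by 0.98 and 1.13 on the log2 scale. Ern1 was at -0.46 and Derl3 at -0.42. By promoter letters, in WT PDC against the 4 others 8 of 11 with an element were higher (median 0.85) and 12 of 20 without (median 0.51), and in NC_CD8 against C_CD8 6 of 11 and 9 of 20 were lower. Some members share sequence with other genes: 17.4% of the 50-base words of Sec61b and 14.8% of those of Sec61g also occur in other annotated transcripts, as do 5.56% for Derl1, 5.50% for Dnajb9, 3.97% for Srp9, 3.28% for Spcs2 and 2.96% for Hsp90b1, so their counts depend on how the submitters assigned such reads.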

How the data were processed

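Gene counts made by the authors and deposited as 1 table were used as deposited. The table has 39017 genes, 37693 of them with a symbol, and 24 libraries. Per the labels' protocols, RNA was extracted with the PicoPure kit and amplified with SMART-seq v4. The submitters' processing notes name bcl2fastq 1.8.4, Bowtie2, DESeq2 1.8.2 and the mm10 genome. The sources used here name no counter, annotation or strand setting, so reads of overlapping genes on opposite strands cannot be told apart. A deposited normalized table was not used.

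Libraries were grouped by labelled subset and genotype. Genes were kept by filterByExpr (minimum count 10), which left 18093. edgeR 4.0.16 (R 4.3.3) fitted 10 group means by quasi-likelihood with TMM scaling, with p-values adjusted by Benjamini-Hochberg over all genes and a threshold of 0.05. log2 CPM used a prior count of 2. Alternatives were an experiment batch block, a replicate block, DESeq2 1.42.0 and its size factors, no filter, the compared groups alone and each library left out. Added after the data had been seen were PDC against C_CD8, the batch B libraries alone (16370 genes, 2 residual degrees of freedom) and a fit without the batch B libraries of PDC. The fit without a block was tested on counts simulated without batch or pair effects. The fits with a block and that of batch B alone were not tested in this way. Libraries that share subset and batch were taken as pairs, since the labels give the batch and ITD and WT libraries of the same batch deviated together (r from 0.13 to 0.65 over 9 separate values, since in a subset with 2 batches both pairs have the same r by construction). In the fit of batch B alone, the WT and ITD libraries of a subset come from the same batch. Its p-values measure what is left after the subset and genotype terms, not the spread between independent experiments. With the experiment batch block, the level of PDC beside other subsets is set by its batch B libraries. For contrasts with PDC, the p-values of that fit likewise do not measure the spread between independent PDC experiments. In the remaining cases, p-values measure the spread between libraries from independent experiments, save where a lone library is assumed to vary like the other groups. The fit of 10 group means took libraries of the same batch as independent, although pairs deviated together. Levels per kilobase used the longest coding transcript of GENCODE M21.

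The members, gene lists and tests were chosen with earlier results of these data known. By rule, the text names the members by role, up to 10 called members per direction with the largest differences in each subset contrast, members not called, the members called for the genotype or else the 5 with the largest differences, and up to 4 called genes per pathway list. Marker lists for 10 cell types were summed. Beside the plasma cell, fibroblast and red pulp macrophage lists given in the results, PDC libraries read 11750 to 12840 CPM on the plasmacytoid list against 220 to 1549 CPM elsewhere. In PDC and in the other libraries, respectively, the sums were 4313 to 7000 and 670.5 to 8361 CPM for the CD8+ type list, 1290 to 1436 and 62.5 to 2711 CPM for the CD11b+ type list, 167 to 322 and 15.8 to 116 CPM for T cells (in PDC mostly Il7r, at 156 to 301.5 CPM, with Cd3e, Cd3d, Cd3g and Trac at most 0.844 CPM), and 23.0 to 30.7 and 45.7 to 998 CPM for red pulp macrophages. Over all libraries they were 28.6 to 114 CPM for B cells, 0.185 to 22.7 CPM for neutrophils and 1.12 to 50.6 CPM for NK cells.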

Additional observations from a re-analysis of the deposited data

How the results depend on the processing

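Values of single genes were followed where the fit without a block called them or, for the genotype, the replicate block did. Members that an alternative alone called are therefore not among them. DESeq2 called 29 members against 28 for PDC against the 4 others in WT, and 31 against 28 for NC_CD8 against PDC. Of the 169 values followed, DESeq2 and its size factors kept the direction and side of the threshold of all 169, and no filter on low counts ended 12 calls. With the experiment batch block, 25 calls ended and 3 turned: in PDC against the 4 others, Srp9 to -0.018 and Ssr3 to -0.06 in WT and Hspa5 to -0.27 in ITD. With the compared groups alone 26 calls ended, and in batch B alone, which holds fewer of the values, 9 ended. Without PDC_ITD replicate 1 (batch A), Hspa5 was at -0.15 in ITD, and at 1.19 without PDC_ITD replicate 2. Members called in NC_CD8 against PDC numbered 28, and 17 with the compared groups alone or without PDC_WT replicate 1. In NC_CD8 against C_CD8 (16 in WT) they were 28 with the experiment batch block and 26 in batch B alone, and in Esamhi against Esamlo (0) they were 8 in WT and 7 in ITD with it. With the replicate block, which uses the pairing by batch, 5 members were called for ITD in NC_CD8 and 4 on average over subsets, and it changed no other call of a member count. The cause of these changes was not tested. Leaving out each library in turn gave 21 to 30 calls for PDC against the 4 others in WT and 21 to 32 in ITD, 17 to 27 for NC_CD8 against PDC, 11 to 18 for NC_CD8 against C_CD8 in WT and 15 to 17 in ITD, 18 to 24 for C_CD8 against the CD11b+ subsets, 12 to 18 for PDC against C_CD8, and 0 for Esamhi against Esamlo and for each ITD comparison. The counts of calls in this section have no share over all genes beside them, so they show only how calls depend on the fit. With 2 or 3 libraries per group, small differences could be missed, and Derl3 rests on few reads.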
